A study of Mus musculus with 6 samples.

Results

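The transcription factors that define hematopoietic stem cells (HSCs) were followed as a group of 10 genes, Meis1, Hoxa9, Gata2, Runx1, Tal1, Gfi1, Gfi1b, Mecom, Erg and Lmo2, chosen by symbol among the 26216 gene names of the deposited tables. All 10 were found, and all 10 passed the filter on low values. RNA was measured by sequencing in LT/ST-HSCs, the bone marrow cells of mixed chimeras that FACS showed 6 weeks after transplantation to be CD150+ and CD48- among living (Annexin-V-) Lin- cells with sca1 and c-kit, and the comparison addressed how loss of the lymphotoxin-β receptor (Ltbr) in these cells changes their RNA. Ltbr-/- cells carry a homozygous germline deletion within Ltbr in every cell and the CD45.2 form of the leukocyte antigen CD45, and their donors were 13, 10 and 10 to 13 weeks old in replicates 1, 2 and 3. Ly5.1 cells are congenic, Ltbr-proficient and CD45.1, from donors of 7 to 13 weeks. LSKs of both genotypes had been given together to Ly5.1/Ly5.2 mice after lethal irradiation, so both were taken from Ltbr-proficient hosts, and cells of 6 chimeras were pooled to 3 replicates per genotype. Donor age and the congenic background cannot be fully told apart from the Ltbr genotype, and p-values measure only the spread between these pools. Ltbr itself was listed at a signal of 24.2, 26.4 and 23.1 in Ltbr-/- and of 564, 549 and 522 in Ly5.1 cells, as the labels have it.

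These factors help to control the self-renewal and differentiation of HSCs, and for several of them loss removes HSCs or a translocation causes leukemia. Tal1, Lmo2, Gata2, Runx1 and Erg bind many of the same enhancers in blood stem and progenitor cells, where Lmo2 bridges the DNA-binding proteins without contacting DNA itself. Hoxa9 binds DNA together with TALE homeodomain proteins such as Meis1, while Gfi1 and Gfi1b are repressors that recruit histone demethylase and deacetylase complexes, and Mecom encodes the zinc finger protein Evi1.

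Because 3 of the 4 members that differed between the genotypes have a RefSeq promoter window here, those windows are shown to place the members' own binding motifs at their start sites. Each holds 300 bases on GRCm38.p6, from 250 bases before to 50 after the most upstream start site of RefSeq's promoter windows for the gene, written 5′ to 3′ on the gene's strand, with matches to 6 short motifs on either strand in capitals. The motifs were AGATAA for Gata2, TGTGGT for Runx1, CCGGAA for Erg and other ETS factors, CAGATG for Tal1, TGACAG for Meis1 and AAATCA for Gfi1 and Gfi1b, and no pair of these matches overlapped. The windows lie at chr11:19018920-19019219 on the minus strand for Meis1, at chr16:92826025-92826324 on the minus strand for Runx1 and at chr6:88193641-88193940 on the plus strand for Gata2, and the RefSeq gene record of Meis1 reaches further upstream than the start site of its window.
Meis1: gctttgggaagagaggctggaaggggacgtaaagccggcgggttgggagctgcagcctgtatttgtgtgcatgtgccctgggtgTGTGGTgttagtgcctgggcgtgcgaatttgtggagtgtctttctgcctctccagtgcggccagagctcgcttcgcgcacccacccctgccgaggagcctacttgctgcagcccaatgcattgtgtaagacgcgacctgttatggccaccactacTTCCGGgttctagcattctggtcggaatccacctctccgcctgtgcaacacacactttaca
Runx1: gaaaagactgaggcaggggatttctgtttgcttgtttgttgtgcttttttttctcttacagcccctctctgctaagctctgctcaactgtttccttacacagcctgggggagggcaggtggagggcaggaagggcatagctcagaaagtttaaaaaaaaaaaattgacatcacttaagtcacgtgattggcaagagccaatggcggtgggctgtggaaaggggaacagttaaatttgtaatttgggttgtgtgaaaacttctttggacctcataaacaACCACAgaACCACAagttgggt
Gata2: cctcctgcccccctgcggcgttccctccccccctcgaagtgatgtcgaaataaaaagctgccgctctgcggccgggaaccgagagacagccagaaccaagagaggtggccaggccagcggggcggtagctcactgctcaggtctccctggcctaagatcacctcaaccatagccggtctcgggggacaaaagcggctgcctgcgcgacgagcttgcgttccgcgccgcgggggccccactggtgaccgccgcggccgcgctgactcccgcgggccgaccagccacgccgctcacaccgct
The Meis1 window held TGTGGT at position −166 and CCGGAA at −11 from the start site. The Runx1 window held 2 matches to TGTGGT, at 29 and 37 bases into the transcript, and the Gata2 window held none of the 6 motifs. Over the 32851 mouse windows of this length, AGATAA was present in 11.2%, TGTGGT in 16.8%, CCGGAA in 14.9%, CAGATG in 17.2%, TGACAG in 19.2% and AAATCA in 14%. Among the 16 windows of 9 members, CCGGAA was present in 3 and each of the other motifs in 2. Such matches describe the letters of these windows only.

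The values are the deposited signal, a linear number per gene and sample, and its log2 was taken as a regularized log, a scaled value that draws weakly expressed genes towards their mean. Differences are Ltbr-/- minus Ly5.1 on the log2 scale. They were tested with limma across 13108 genes with Benjamini-Hochberg adjustment, at an adjusted p of 0.05. An exact two-sided permutation test of 3 against 3 samples can give no p below 0.1. Of the 10 members, 4 passed the limma test: Gata2 and Runx1 were higher in Ltbr-/- cells, a direction that turned when samples were scaled on ribosomal protein genes, and Meis1 and Lmo2 were lower. Thus 2 of 10 were higher beside 10.6% of all tested genes, 2 of 10 lower beside 4.18%, and 4 of 10 in either direction beside 14.8%. Strongly expressed genes passed more often, 22.9% of the 6554 in the upper 25% of names by mean signal, where 9 of the 10 members lie. A fold of 1.5 with an adjusted p under 0.05 was reached by 0 of 10 members in limma, beside 2.78% of all tested genes. In 5 of 10 members the samples of the 2 genotypes did not overlap, as in 30.4% of all tested genes.

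**Figure D1:**
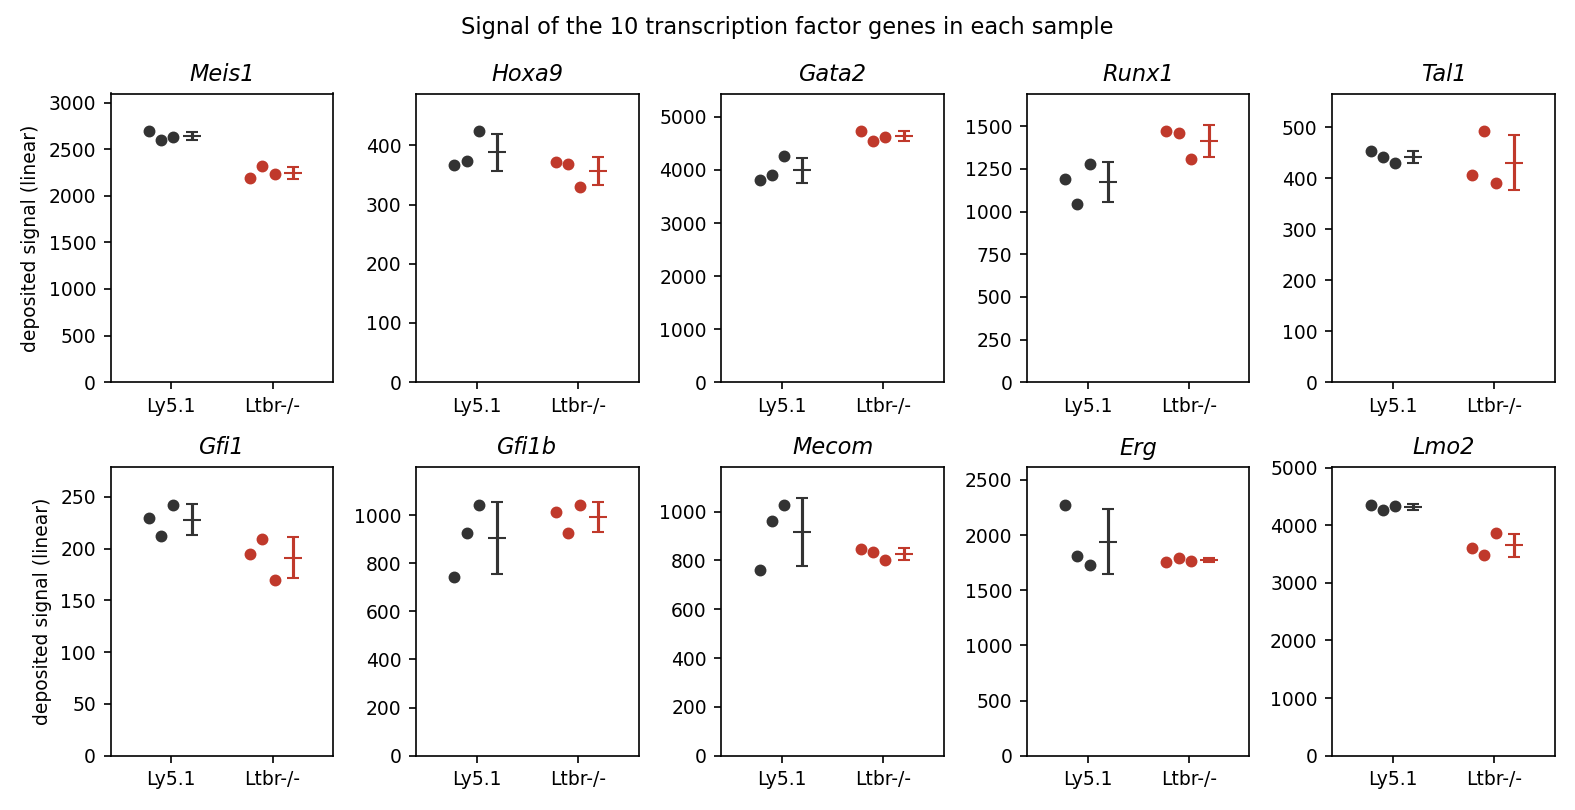
Deposited signal (linear, with an axis of its own for each gene) of the 10 members in 3 Ltbr-/- and 3 Ly5.1 samples; points are samples and bars mark the mean ± SD. All Ltbr-/- points of Meis1, Lmo2 and Gfi1 lie below all Ly5.1 points and those of Gata2 and Runx1 above, while the groups overlap in Hoxa9, Tal1, Gfi1b, Mecom and Erg; after scaling on ribosomal protein genes the Gata2 and Runx1 differences were below 0.

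Among the DNA-binding factors of the shared enhancer complexes, Gata2 and Runx1 were the pair with more RNA in Ltbr-/- cells on the deposited scale. Gata2, a zinc finger factor needed for HSC survival and expansion, gave a signal of 4731, 4555 and 4625 in Ltbr-/- and of 3813, 3906 and 4259 in Ly5.1 cells. The Ly5.1 samples were the more widely spread, with replicate 3 closest to the Ltbr-/- samples, and the groups did not overlap. The mean signal was 4637 ± 89.1 against 3993 ± 235 (SD, n = 3 each), a log2 difference of 0.22 (SE 0.07, 95% interval 0.07 to 0.37, limma adjusted p = 0.0402), which became −0.66 with scaling on ribosomal protein genes. Without single samples the Gata2 difference stayed between 0.185 and 0.265. The call was kept without Ly5.1 replicate 3 (limma adjusted p = 0.0105) and lost without any other sample. The limma adjusted p was 0.124, 0.0941 and 0.112 without Ltbr-/- replicates 1, 2 and 3, and 0.158 and 0.0968 without Ly5.1 replicates 1 and 2. With quantile normalization, the Gata2 difference was 0.08 (limma adjusted p = 0.456).

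Runx1, the core-binding factor subunit through which HSCs first form in the embryo, was listed at 1471, 1462 and 1308 in Ltbr-/- and at 1188, 1046 and 1279 in Ly5.1 cells. The lowest Ltbr-/- sample (replicate 3) and the highest Ly5.1 sample (replicate 3) nearly met. The mean was 1413 ± 91.8 against 1171 ± 117 (SD, n = 3 each), and the difference of 0.27 (SE 0.09, 95% interval 0.09 to 0.46, limma adjusted p = 0.0341), the largest of the 10 members in size, became −0.60 with scaling on ribosomal protein genes. The call was kept without either of these replicates 3 (limma adjusted p = 0.0328 without the Ltbr-/- and 0.0100 without the Ly5.1 sample). It was lost without Ltbr-/- replicates 1 and 2 (0.125 and 0.126) and Ly5.1 replicates 1 and 2 (0.0583 and 0.199), all limma adjusted p. Runx1 and Gata2 were also past the threshold in neither the fit without a filter (limma adjusted p of 0.292 and 0.124) nor that without a trend (0.0582 and 0.0586), and Runx1 not with quantile normalization (0.0587).

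Erg, the ETS factor of the group, gave 1759, 1794 and 1766 in Ltbr-/- and 2276, 1813 and 1731 in Ly5.1 cells. The groups overlapped, and Ly5.1 replicate 1 stood above the other 5 samples. Erg did not pass, with a difference of −0.12 (SE 0.09, 95% interval −0.30 to 0.06, limma adjusted p = 0.418), which was 0.00099 without Ly5.1 replicate 1. Tal1, the basic helix-loop-helix partner of Lmo2, was listed at 407, 492 and 391 in Ltbr-/- and at 454, 441 and 430 in Ly5.1 cells, the Ly5.1 samples lying inside the range of the Ltbr-/- samples. Its difference of −0.05 (SE 0.10, 95% interval −0.24 to 0.15, limma adjusted p = 0.812) was the smallest of the group, and was 0.019 without Ltbr-/- replicate 3.

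Lmo2, the LIM-only bridging protein, was the member with the lowest adjusted p. Its signal was 3599, 3486 and 3867 in Ltbr-/- and 4357, 4255 and 4332 in Ly5.1 cells. Ltbr-/- replicate 3 was the closest to the Ly5.1 samples, which lay within a narrow range above all Ltbr-/- samples. Mean signals of 3651 ± 195 and 4315 ± 52.7 (SD, n = 3 each) gave a fold of 0.845 and a log2 difference of −0.24 (SE 0.07, 95% interval −0.39 to −0.09, limma adjusted p = 0.0216). The call was kept without Ltbr-/- replicate 3, Ly5.1 replicate 2 or Ly5.1 replicate 3 (limma adjusted p of 0.0256, 0.0354 and 0.0284) and lost without Ltbr-/- replicates 1 or 2 or Ly5.1 replicate 1 (0.0701, 0.133 and 0.0658). It was also lost with no filter (limma adjusted p = 0.0743) and in a per-gene model without moderation (0.0818).

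In the homeobox pair, Meis1 was lower in Ltbr-/- cells and Hoxa9 did not pass. Meis1, a TALE homeodomain factor that limits HSC cycling, gave 2190, 2319 and 2234 in Ltbr-/- and 2693, 2603 and 2627 in Ly5.1 cells. Both groups were tight and apart from each other. The mean was 2248 ± 65.8 against 2641 ± 46.6 (SD, n = 3 each), a fold of 0.851 and a log2 difference of −0.23 (SE 0.08, 95% interval −0.39 to −0.07, limma adjusted p = 0.0380). Without single samples, the Meis1 call was kept only without Ly5.1 replicate 3 (limma adjusted p = 0.0481). It was 0.125, 0.0694 and 0.113 without Ltbr-/- replicates 1, 2 and 3 and 0.111 and 0.0588 without Ly5.1 replicates 1 and 2, while the difference stayed between −0.26 and −0.21. Of the 4 members past the threshold, only Meis1 also passed in all 3 of the fits with no filter, without a trend and per gene without moderation (adjusted p of 0.0354, 0.0330 and 0.0376).

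Hoxa9, the homeobox factor that Meis1 accompanies on DNA, was listed at 373, 368 and 329 in Ltbr-/- and at 367, 374 and 424 in Ly5.1 cells. Replicate 3 was the lowest Ltbr-/- and the highest Ly5.1 sample, and the other 4 values were nearly equal. The difference was −0.12 (SE 0.10, 95% interval −0.32 to 0.07, limma adjusted p = 0.445), or −0.06 without replicate 3 of either genotype.

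Of the repressor pair, Gfi1 lay just outside the threshold and Gfi1b overlapped between the groups. Gfi1, which restrains HSC proliferation, gave 195, 209 and 170 in Ltbr-/- and 229, 212 and 242 in Ly5.1 cells. All Ltbr-/- values were below all Ly5.1 values, by a small gap between replicate 2 of each group. The difference was −0.26 (SE 0.10, 95% interval −0.45 to −0.06, limma adjusted p = 0.0666), and it passed without Ltbr-/- replicate 2, at −0.32 (adjusted p = 0.0383). Gfi1b, which limits HSC expansion and is needed for red cells and platelets, was listed at 1011, 924 and 1043 in Ltbr-/- and at 744, 926 and 1043 in Ly5.1 cells. Only Ly5.1 replicate 1 was outside the range of the other 5 samples, and the difference was 0.15 (SE 0.10, 95% interval −0.06 to 0.35, limma adjusted p = 0.359), or −0.73 with scaling on ribosomal protein genes. Without Ly5.1 replicate 1 the Gfi1b difference was 0.013. Mecom, whose product Evi1 sustains long-term HSCs, gave 848, 836 and 801 in Ltbr-/- and 762, 963 and 1029 in Ly5.1 cells. The Ltbr-/- samples lay inside the range of the Ly5.1 samples, and Mecom did not pass, at −0.14 (SE 0.10, 95% interval −0.33 to 0.06, limma adjusted p = 0.384). The Mecom difference was −0.27 without Ly5.1 replicate 1 and −0.05 without Ly5.1 replicate 3.

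**Figure D2:**
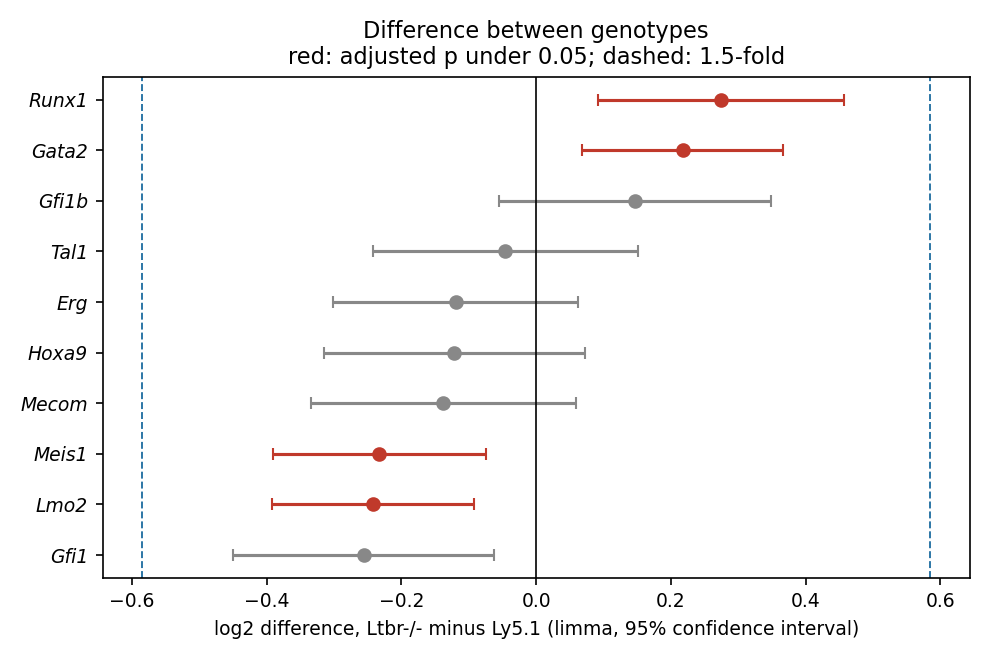
Log2 difference (Ltbr-/- minus Ly5.1) of the 10 members with 95% intervals from the limma fit, n = 3 per genotype; the line at 0 marks equal signal. The intervals of Runx1, Gata2, Meis1, Lmo2 and Gfi1 do not include 0, and the 4 members past the adjusted threshold are Runx1 and Gata2 above 0, both below 0 when scaled on ribosomal protein genes, and Meis1 and Lmo2 below 0.

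Over the whole group, 3 members lay above and 7 below 0. The median difference was −0.12, beside −0.011 for all tested genes, of which 46.4% lay above 0. In size alone, the median difference was 0.18 for the members and 0.097 for all tested genes. The SE of the members, 0.0735 to 0.0997, lay around the median SE of 0.089 of all tested genes.

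Of the scalings tried, only that on ribosomal protein genes turned the sign of Gata2 and Runx1. With centring on the median of tested genes they were at 0.22 and 0.27, and with quantile normalization at 0.08 and 0.25. The 80 ribosomal protein genes had a median log2 signal of 13.3 to 13.4 in Ltbr-/- and of 12.4 to 12.6 in Ly5.1 cells, so that setting them equal moved the median of all tested genes to −0.89 and put all 10 members below 0. Centring shifts all genes of a sample alike, so differences relative to that median cannot change and are no separate result. Relative to the median, Runx1 was at 0.29, Gata2 at 0.23, Lmo2 at −0.23 and Meis1 at −0.22 with or without this scaling. Ratios between members within a sample do not depend on such scaling. The following 4 were formed after the differences were known, from the members past the threshold in opposite directions, so they are given as a description.

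**Figure D3:**
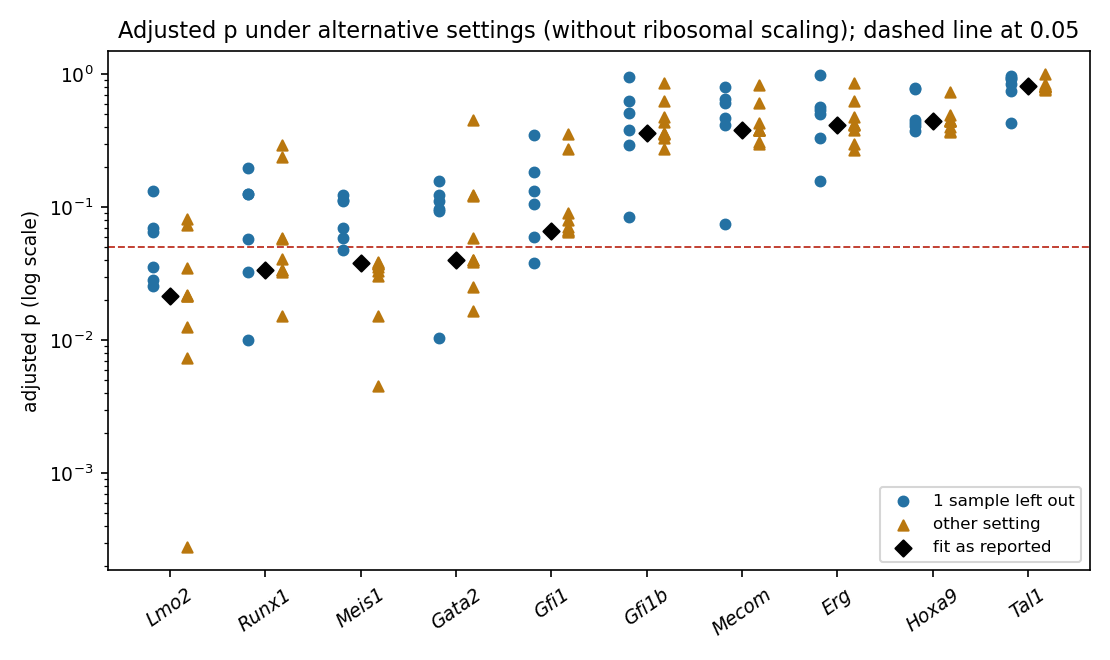
Adjusted p (log axis) of the 10 members in the limma fit as reported (diamonds), in the 6 fits that leave out 1 sample (circles) and under the other settings (triangles), without the scaling on ribosomal protein genes; the dashed line marks 0.05. The values of Lmo2, Runx1, Meis1, Gata2 and Gfi1 lie on both sides of the line, and those of the other 5 members all lie above it.

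The Gata2 to Meis1 ratio of signals was 2.16, 1.96 and 2.07 in the Ltbr-/- samples and 1.42, 1.5 and 1.62 in the Ly5.1 samples. The Gata2 to Lmo2 ratio was 1.31, 1.31 and 1.2 in Ltbr-/- and 0.875, 0.918 and 0.983 in Ly5.1 cells. Both ratios were thus higher in every Ltbr-/- sample than in any Ly5.1 sample. The Runx1 to Meis1 ratio was 0.672, 0.630 and 0.585 against 0.441, 0.402 and 0.487. The Runx1 to Lmo2 ratio was 0.409, 0.419 and 0.338 against 0.273, 0.246 and 0.295. On the log2 scale the ratios differed by 0.45 for Gata2 to Meis1, 0.46 for Gata2 to Lmo2, 0.51 for Runx1 to Meis1 and 0.52 for Runx1 to Lmo2. None of the 4 could overlap between the genotypes. Gata2 and Runx1 were higher, and Meis1 and Lmo2 lower, in every Ltbr-/- sample than in any Ly5.1 sample. The ratios thus add no result to those of the single genes.

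**Figure D4:**
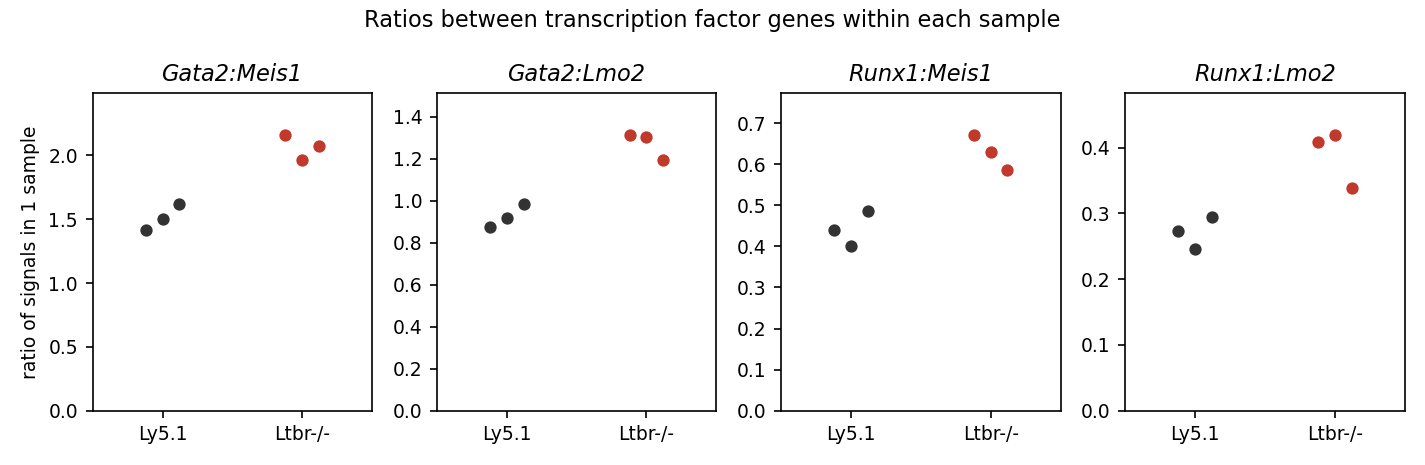
Ratios of the deposited signal of Gata2 or Runx1 to that of Meis1 or Lmo2 within each sample, with 3 Ltbr-/- and 3 Ly5.1 points per ratio. In each of the 4 ratios all Ltbr-/- points lie above all Ly5.1 points, which follows from the choice of members that were apart in opposite directions. The Gata2 to Lmo2 ratio is 1.2 to 1.31 in Ltbr-/- and 0.875 to 0.983 in Ly5.1 samples.

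Levels between members were compared as signal per kilobase of the longest protein-coding transcript (GENCODE M21). In Ly5.1 cells this level was highest for Lmo2 (2529 ± 30.9, SD, n = 3), followed by Gata2 (1118 ± 65.9), Erg (597 ± 90.4) and Gfi1b (496 ± 82.8). Below them came Meis1 (350 ± 6.17), Runx1 (200 ± 20.0), Mecom (161 ± 24.4), Hoxa9 (120 ± 9.67), Tal1 (105 ± 2.83) and Gfi1 (79.7 ± 5.33). Erg and Gfi1b overlapped between samples, as did Runx1 and Mecom, and neither order is larger than that spread. The order was the same in Ltbr-/- cells, with Lmo2 at 2140 and Gata2 at 1299 per kilobase. It depends on the transcript chosen: with the median transcript length, Meis1 and Runx1 stood above Gfi1b in Ly5.1 cells.

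The 10 members lie on 7 chromosomes, and none shares chromosome 1 with Ptprc, the CD45 gene by which the cells were told apart. On GRCm38.p6, Gata2 (chr6:88193891-88207032, plus strand) is 37.1 Mb and Hoxa9 (chr6:52223097-52227370, minus strand) 73.1 Mb from Ltbr on the same chromosome. Runx1 (chr16:92601466-92826074) and Erg (chr16:95359169-95586600), both on the minus strand, share chromosome 16. Lmo2 (chr2:103957903-103981878, plus strand) overlaps the coding gene 4931422A03Rik on the other strand. Meis1 (chr11:18880428-19019651, minus strand) overlaps the antisense genes Gm16140 and Gm16141, and Runx1 the antisense gene Gm26626. Mecom and Gfi1 also have transcripts on the opposite strand, Mecomos and A430072P03Rik. Whether reads were counted by strand is not given in the sources used here, so reads of such partners cannot be told apart from those of the member.

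Across the 6 samples, which share genotype as their main difference, log2 values of Meis1 and Lmo2 ran together (Pearson r = 0.887), as did Gata2 and Runx1 (r = 0.863), while Meis1 and Gata2 ran opposite (r = −0.927). Gfi1b and Erg, neither of which passed the test, were also opposite (r = −0.952), with Ly5.1 replicate 1 the highest in Erg and the lowest in Gfi1b. The tested genes most like Meis1 by this measure were Srpr (r = 0.996), Serpinb8 (0.992) and Ptpn6 (0.990), and those most like Lmo2 were Ipp (0.998), Zbtb48 (0.995) and Slc14a1 (0.993). Ctsz (0.995), Asna1 (0.992) and Snx20 (0.992) were most like Gata2, and Ino80b (0.987), 1110012L19Rik (0.987) and Atp5f1 (0.986) most like Runx1. These are the highest of 13108 correlations over 6 points and are given as a description.

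Among the genes of the members' partners, Ssbp2 was lower in Ltbr-/- cells. Of 8 partners of the Tal1, Lmo2, Gata2, Runx1 and Erg complexes, 0 were higher and 1 was lower, beside the 14.8% of all tested genes past the threshold, with a median difference of −0.07. The lower gene was Ssbp2, which stabilizes the Ldb1 protein that Lmo2 binds: its signal was 454, 423 and 452 in Ltbr-/- and 659, 651 and 608 in Ly5.1 cells. Its difference of −0.53 (SE 0.09, limma adjusted p = 3.37e-05) was larger in size than that of any member and was past the threshold in 15 of 15 alternative fits. Ldb1, the dimerizing partner of Lmo2, was at −0.19 (limma adjusted p = 0.0841), Fli1, the ETS factor closest to Erg, at −0.22 (0.0871), Lyl1, the relative of Tal1, at 0.10 (0.487, or −0.78 when scaled on ribosomal protein genes) and Cbfb, the partner of Runx1, at −0.08 (0.644).

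None of the 5 corepressors of Gfi1 and Gfi1b passed (median −0.03), beside 14.8% of all tested genes. Of 7 tested paralogs of members, only Lmo4, a relative of Lmo2, passed: it was higher at 0.38 (limma adjusted p = 0.00360) on the deposited scale and at −0.49 when scaled on ribosomal protein genes.

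Among other regulators of HSCs, most of them transcription factors, the genes past the threshold were lower. The list also holds genes of other proteins, such as the RNA-binding protein Msi2. Of 14 tested, 0 were higher and 3 lower, beside 10.6% and 4.18% of all tested genes, with a median of −0.09. The lower genes were Etv6, an ETS repressor, at −0.34 (limma adjusted p = 0.00279), Myb, which drives progenitor growth, at −0.26 (0.00558), and Egr1, which keeps HSCs quiescent, at −0.25 (0.0229). The Egr1 call was lost without Ltbr-/- replicate 3 (limma adjusted p = 0.241) and without Ly5.1 replicate 2 (0.0807). Hlf, a factor restricted to HSCs within the marrow, was at −0.17 (limma adjusted p = 0.232). Of 8 tested factors of committed lineages, only Cebpe, a factor of late granulocyte development, passed, with a signal of 1439, 1384 and 1238 in Ltbr-/- and 787, 647 and 846 in Ly5.1 cells. That difference of 0.84 (SE 0.10, limma adjusted p = 1.06e-08) was −0.036 when scaled on ribosomal protein genes. Spi1, listed under its older symbol Sfpi1 and encoding PU.1, was at 0.23 (limma adjusted p = 0.0664), or −0.65 when scaled on ribosomal protein genes.

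Of 12 genes described as targets of the members, 3 were higher and 1 lower, with a median of −0.02. Of all tested genes, 10.6% were higher and 4.18% lower. Cdkn1a, the cyclin-dependent kinase inhibitor p21 that Gfi1 is described to repress, gave 816, 967 and 1009 in Ltbr-/- and 515, 431 and 539 in Ly5.1 cells, a difference of 0.91 (SE 0.10, limma adjusted p = 3.35e-09) that was no longer past the threshold when scaled on ribosomal protein genes (0.778). Pdzk1ip1, a neighbour of Tal1, was at 0.40 (limma adjusted p = 0.00120) and Itga2b, the platelet integrin, at 0.31 (0.000461) on the deposited scale, and at −0.47 and −0.56 when scaled on ribosomal protein genes. With quantile normalization Itga2b did not pass (limma adjusted p = 0.904). Cd34, which marks the shorter-lived HSCs, was lower at −0.31 (limma adjusted p = 0.00434).

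**Figure D5:**
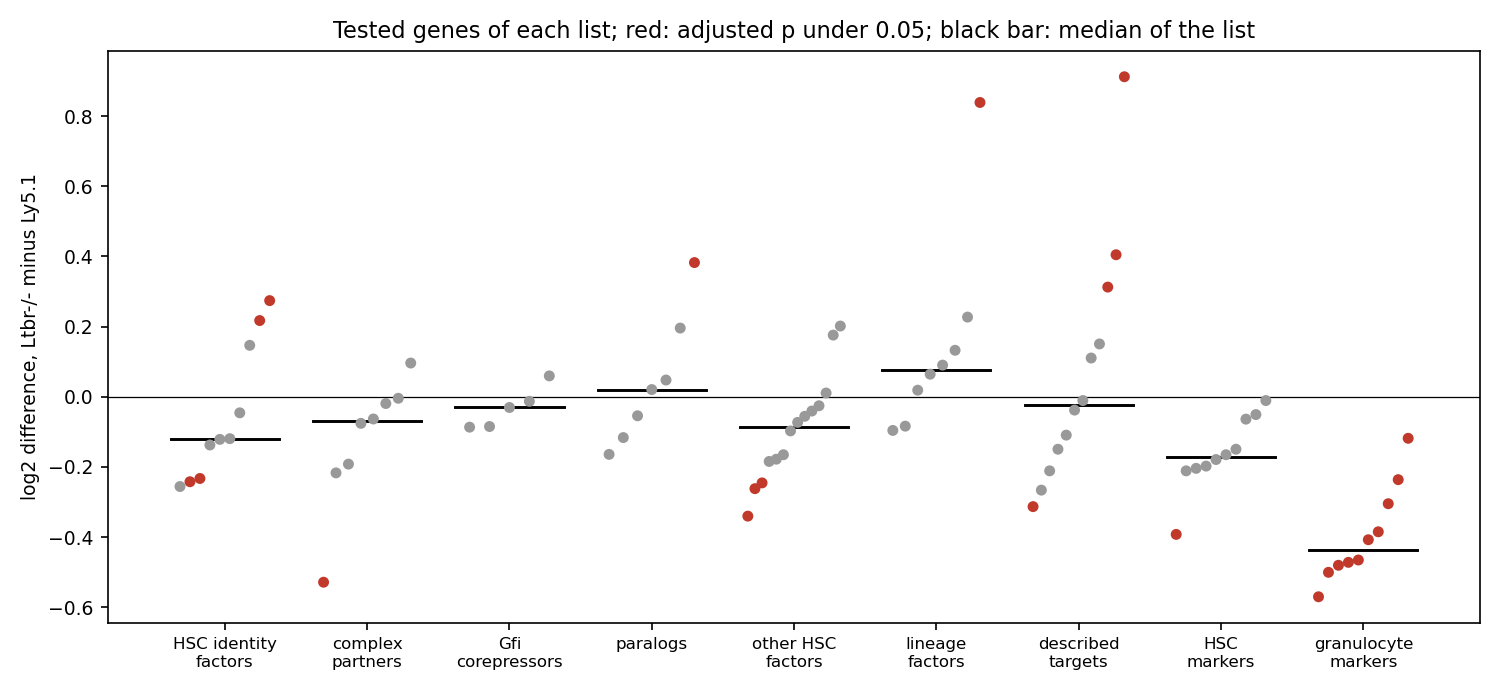
Log2 difference (Ltbr-/- minus Ly5.1) of every tested gene in the list of the 10 factors and in the lists of their partners, relatives, targets, HSC markers and granulocyte markers; each point is a gene, and the bar marks the list's median. Red points are genes past an adjusted p of 0.05: 4 of 10 members, at most 3 of the genes in any list of partners, relatives or other factors, 4 of the 12 described targets and all 10 granulocyte markers, beside 14.8% of all tested genes. When scaled on ribosomal protein genes the median of all tested genes was −0.89.

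The sorted cells expressed the markers of their gate. All 10 LT/ST-HSC markers were tested, with 0 above 0, a median of −0.17 and 1 lower, Ly6a (the sca1 gene, −0.39, limma adjusted p = 0.00160), while Cd48 was low in both groups (25.2 ± 3.28 against 25.1 ± 4.49, SD, n = 3 each). Flt3, which the gate did not sort on, was at −0.28 (limma adjusted p = 0.0355), but passed in 1 of the 6 fits that leave out a sample, that without Ltbr-/- replicate 2, with 0.178 as the highest adjusted p, without Ltbr-/- replicate 3. The lineage depletion before the sort was made to remove granulocytes (Gr1) and red cell precursors (Ter119), among other cells. In pooled RNA, fewer cells of a type and less RNA per cell cannot be told apart, and the members are also made in other blood cells. All 10 of 10 granulocyte markers were lower (median −0.44), beside 4.18% of all tested genes. Camp was at −0.57, Ltf at −0.50, Ctsg at −0.48 and S100a9 at −0.47, and the summed signals were 43938 to 44507 in Ltbr-/- and 57568 to 62269 in Ly5.1 cells. These markers moved in the direction of Gfi1, a factor of granulocytes as well as HSCs, and of Meis1 and Lmo2. Cebpe, the factor of late granulocyte development, moved the other way on the deposited scale (0.84, or −0.036 when scaled on ribosomal protein genes). The HSC markers also moved in the direction of Gfi1, Meis1 and Lmo2, with summed signals of 11731 to 12315 in Ltbr-/- and 13321 to 13519 in Ly5.1 cells. The part of either list in the differences of these members was not tested.

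Mast cells, basophils, red cell precursors and megakaryocytes also use Gata2, Runx1, Tal1 or Gfi1b, and their markers moved in both directions. Of all tested genes, 10.6% were higher and 4.18% lower. Of 7 tested mast cell and basophil markers, 2 were higher (Cma1 at 1.32 and Cpa3 at 0.56, the latter at −0.32 when scaled on ribosomal protein genes) and 1 lower (Prss34 at −0.41, lost without Ltbr-/- replicate 2 at a limma adjusted p of 0.0684), with summed signals of 7532 to 8103 in Ltbr-/- and 4140 to 4727 in Ly5.1 cells and Tpsb2 listed at 1. The median of these 7 was −0.04, with 3 above 0, and without Cma1, the most abundant, the sums were 2270 to 2398 and 2038 to 2275. Of 9 erythroid markers, 2 were higher (Hba-a1 at 0.99 and Hba-a2 at 0.86, the former not past the threshold and the latter −0.016 when scaled on ribosomal protein genes), and the sums were 5457 to 5754 and 3900 to 4273, or 3464 to 3597 and 2907 to 3082 without Hba-a1. The erythroid median was 0.11, with 6 of 9 above 0. Of 8 tested megakaryocyte markers, Itga2b was higher and Pf4 lower (−0.33, lost without Ltbr-/- replicates 1 or 2 or Ly5.1 replicate 3, with limma adjusted p of 0.0587, 0.169 and 0.168), with a median of −0.04 and 3 above 0. The megakaryocyte sums were 14609 to 15354 in Ltbr-/- and 12426 to 13815 in Ly5.1 cells, but 3260 to 3329 and 3570 to 3851 without Itga2b, so their direction was that of a single gene. On the deposited scale the erythroid sums moved in the direction of Gata2 and Runx1 with and without Hba-a1. The mast cell and basophil sums did so with Cma1 but overlapped between the genotypes without it. The part of either list in the Gata2 and Runx1 differences was not tested. Tal1 at −0.05 and Gfi1b at 0.15 did not pass (limma adjusted p of 0.812 and 0.359), and Gfi1b was at 0.013 without Ly5.1 replicate 1.

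Markers of other cells moved in both directions or not at all, beside 14.8% of all tested genes past the threshold. Of 8 tested monocyte and macrophage markers, Emr1 (0.83) and Cd68 (0.28) were higher and Lyz2 (−0.42) lower, with sums of 6849 to 7575 in Ltbr-/- and 7575 to 8039 in Ly5.1 cells, or 3444 to 3778 and 2952 to 3218 without Lyz2, and Emr1 and Cd68 at −0.042 and −0.59 when scaled on ribosomal protein genes. Cd68 passed in 1 of the 6 fits that leave out a sample, that without Ly5.1 replicate 2, with 0.207 as the highest adjusted p, without Ly5.1 replicate 1. Of 5 tested B cell and plasma cell markers, Igkc (−1.21) and Ighm (−1.04) were lower and Cd79a (0.62, or −0.26 when scaled on ribosomal protein genes) higher, with sums of 1469 to 1598 and 2328 to 2491, while Ms4a1 and Pax5 were at or under 2 on average. None of 4 tested T and NK cell markers passed, with sums of 278 to 287 and 277 to 307, and Cd3e and Cd8a were at or under 2.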

How the data were processed

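RNA from LT/ST-HSCs of 3 Ltbr-/- and 3 Ly5.1 pools was sequenced by the authors from 20 ng of total RNA as single reads of 76 bases (stranded mRNA library, Illumina), assembled with SeqMan NGen and quantified with ArrayStar. The authors deposited for each sample a signal per gene, which is never negative. That its log2 is the regularized log named in the methods (DESeq2 in the submitters' processing notes, which also name GRCm38 and mm10) was inferred from the values. The annotation is not given in the sources used here. The files give no counts and the study's methods only a mean number of reads over samples, so no counting interval was made per gene and precision rests on 3 samples per genotype.

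Groups came from the sample titles. Of 26595 values per sample, the row with the highest mean was kept for each of 26216 names, of which 9034 had exactly equal deposited values in all samples; the upper 50% by mean (13108) were tested. The log2 of the deposited signal was tested in limma 3.58.1 (R 4.3.3; lmFit, then eBayes with a mean-variance trend), with genotype only and no pseudocount. The fit was repeated with the replicate number as a block, no filter or the upper 25% by mean, a pseudocount of 1, quantile-normalized values, samples centred by the median of the tested or the ribosomal protein genes, no trend or no moderation of variances, folds of 1.2 or none, the mean of repeated rows, and leaving out each sample. Single genes were also compared by an exact permutation test (scipy 1.17.1). The model was tested on simulated data.

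The members and gene lists were chosen with earlier results of these data known. Named are all members, up to 4 genes past the threshold per list by size, the partners Fli1, Lyl1, Ldb1, Cbfb, Hlf and Spi1, Ltbr, and the 3 tested genes best correlated with each member past the threshold; 1 list and a gene of this rule are not reported here. Ratios between members, the motifs and the correlated pairs of members were chosen after values were seen. Gene and promoter positions and sequences are those of RefSeq on GRCm38.p6, transcript lengths and overlaps those of GENCODE M21.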

Additional observations from a re-analysis of the deposited data

How the results depend on the processing

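The 10 members kept their direction under the alternatives, apart from Tal1 (−0.15 to 0.019 without single samples, above 0 without Ltbr-/- replicate 3), Erg (−0.20 to 0.00099, above 0 without Ly5.1 replicate 1) and, with centring on ribosomal protein genes, Gata2 at −0.66, Runx1 at −0.60 and Gfi1b at −0.73. That centring also turned Lmo4 (−0.49), Cebpe (−0.036), Pdzk1ip1 (−0.47), Itga2b (−0.56), Emr1 (−0.042), Cd68 (−0.59), Cpa3 (−0.32), Hba-a2 (−0.016), Cd79a (−0.26), Lyl1 (−0.78) and Sfpi1 (−0.65). It put 10 of 10 members past the adjusted threshold and the fold of 1.5, all lower, with a median of −0.996, and called 12010 genes, 0 of them higher, in place of 364 (356 higher). Members past the adjusted p numbered 4 as reported, 1 with no filter (Meis1), 2 with quantile normalization and 2 without a trend (Meis1 and Lmo2 each time), 1 in the per-gene model without moderation (Meis1), and 0 to 4 without single samples. The members' median lay between −0.145 and −0.060 without single samples. With no threshold of fold, 4 members and 1936 genes (1388 higher) were called, and with a fold of 1.2, 1 member (Runx1) and 1647 genes (1231 higher). Over 46 named genes, 614 of 732 single-gene values kept their direction and side of the threshold, 84 lost and 18 gained the call, and 16 turned; the cause was not tested. Of the 29 named genes of other lists past the threshold, 16 were no longer past with no filter and 19 in the per-gene model.

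The labels do not say whether samples with the same replicate number came from the same chimeras, and their values did not meet the level taken as pairing: deviations from the group means correlated at 0.0314, −0.0052 and 0.0899, and with the replicate block 4 members were past the threshold and 364 genes were called, as without it. Not every sample correlated best with its own number. The files give no counts, so the counting error behind each gene's value could not be computed; with 3 samples per genotype the SE of a member was 0.0735 to 0.0997.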
